A study of Mus musculus with 8 samples.

Results

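The genes described here encode complement and coagulation proteins, 37 named genes of which 33 were measured among 22180 genes in all. A gene was taken as measured when the platform annotation had a row naming it and no other gene, and of several such rows the one with the greatest mean level across the 8 arrays stood for it. Masp2 and Klkb1 occurred only in rows shared with a second gene, and C3 and Cfd had no row under those names, so these 4 have no value of their own. RNA came from liver segments of C57BL/6 mice, labelled female and 6 weeks of age. All were given 3% dextran sulfate sodium (DSS), an agent that damages the gut epithelium and brings on colitis, over 7 days. The labels give 4 arrays to wild-type mice and 4 to IL-10 knockout mice, in which the gene of the anti-inflammatory cytokine interleukin-10 is mutated. Every mouse of both groups received DSS, so the comparison is between genotypes under colitis and has no untreated reference.

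Complement is a cascade of plasma proteins that marks and lyses microbes. The lectin pathway starts when mannose-binding lectins recognise sugars, the classical pathway when C1 binds antibody, and the alternative pathway amplifies on surfaces through factor B. All of them meet at C3 and end in the terminal components, C5 to C9, which assemble a pore in the target membrane. Clotting factors form a second protease cascade that ends in thrombin and fibrin, with protein C and protein S as brakes and plasmin dissolving the clot. Hepatocytes make most of these proteins, while properdin and the receptors for C3a and C5a are made mainly by myeloid cells.

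Levels are log2 values from robust multi-array averaging (RMA), where a difference of 1 is a doubling or halving of signal. Each difference subtracts the wild-type mean from that of the arrays labelled knockout, and its SE, interval and adjusted p come from limma over all 22180 genes, and a gene was called at an adjusted p below 0.05. Errors of means are SD over n = 4 arrays. The labels name no animals or litters, so p-values cover only array-to-array spread, which may be technical. Il10 gave 4.95, 5.08, 4.90 and 4.95 in the wild-type replicates and 5.79, 5.69, 6.00 and 6.41 in those labelled knockout, a difference of 1.00 (limma adjusted p = 0.00851). Thus the targeted gene did not read lower where the label says knockout. Its wild-type levels lay below the array medians of 6.09 to 6.22, and whether its probes exceed background is not known. A loss of transcript from such a level may not show. The sources used here do not place the mutation relative to the Il10 probes, so every direction below rests on the labels. Although all mice are labelled female, 4 arrays, replicates 1 and 2 of each group, carried Y-linked signal and replicates 3 and 4 carried Xist signal. Differences are therefore also given within these sets of 4 arrays and with the set as a block. Liver identity was plain from albumin, which read 13.48 to 13.65 on arrays whose highest value was 13.8. Of the members, Vtn (13.34 to 13.42) came nearest to that upper end.

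Most of these genes, like most genes measured, differed little between the groups, and the 3 that were called are complement genes. Of the 33 measured, Mbl2, C8g and Cfhr2 fell in the arrays labelled knockout, none rose, and 30 did not pass the test. That is 9.09% of members, where 3.15% of all genes were called, 1.59% as lower and 1.56% as higher. All genes include the lowest 40% by mean level, where no member lies. With those left out, 395 genes were called higher and 417 lower, more than in the full fit and out of fewer genes. The share of genes called was therefore above 3.15% in that fit, which narrows the distance to the members. There 3 members were still called lower and 1, Cfp, higher (limma adjusted p = 0.0459). An unadjusted p below 0.05 was reached by 10 members, beside 21.2% of all genes. All 3 are among the 21 complement members, and the difference between complement and coagulation was not tested. None of the 12 members from coagulation, anticoagulation and fibrinolysis was called (3 had an unadjusted p below 0.05). The median difference over members was -0.05, beside 0.03 over all genes. Taken without sign, the median was 0.13 over members and 0.11 over all genes. For 28 members, 84.8%, the 95% interval of the difference lay within a 1.5-fold change in either direction, as it did for 87.3% of all genes. The 5 without so narrow an interval were Mbl2, Cfp, C6, C8g and C9. With the set of arrays as a block, Cfp passed as higher and C9 as lower beside the same 3 genes, with 4.68% of all genes called in that fit, 2.13% as higher and 2.55% as lower.

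**Figure D1:**
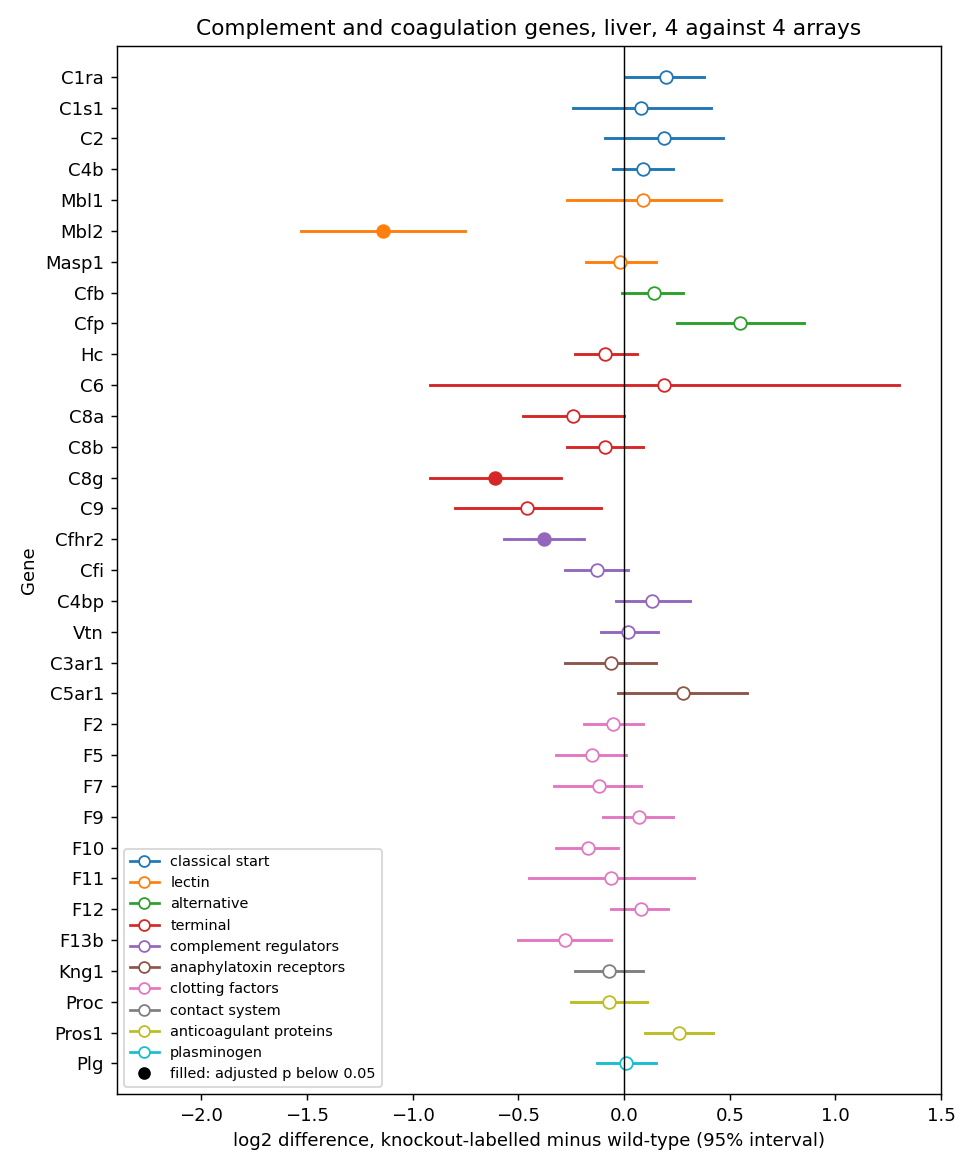
Log2 difference between arrays labelled knockout and wild-type arrays (x axis) for each measured gene (y axis), with 95% intervals from limma and colours by role. Filled points, Mbl2, C8g and Cfhr2, have an adjusted p below 0.05, all of them left of 0, while the clotting factors crowd around 0.

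The promoters of the 3 called genes are printed to show what lies upstream of the members that fell. The runs are the 250 bases before the annotated start in RefSeq (GRCm38.p6), on the strand of the gene and 5′ to 3′. Capitals mark any match to 4 motifs of liver regulators: an element of HNF1 (GTTAAT), a core of HNF4 (CAAAGTC), a C/EBP site (TTGCNNAA) and a STAT site (TTCNNNGAA), each searched on both strands.
Mbl2 (chr19:30232678-30232927, plus strand): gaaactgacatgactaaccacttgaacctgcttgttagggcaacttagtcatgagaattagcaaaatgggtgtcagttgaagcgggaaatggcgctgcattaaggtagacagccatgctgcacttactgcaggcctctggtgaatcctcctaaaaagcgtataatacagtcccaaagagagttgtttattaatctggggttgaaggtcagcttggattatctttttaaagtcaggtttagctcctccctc
C8g, first listed start (chr2:25501720-25501969, minus strand): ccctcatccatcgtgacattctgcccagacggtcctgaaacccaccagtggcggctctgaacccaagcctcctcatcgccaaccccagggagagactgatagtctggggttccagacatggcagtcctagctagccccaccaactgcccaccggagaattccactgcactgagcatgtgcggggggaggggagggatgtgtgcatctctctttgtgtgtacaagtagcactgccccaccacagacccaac
C8g, second listed start (chr2:25500507-25500756, minus strand): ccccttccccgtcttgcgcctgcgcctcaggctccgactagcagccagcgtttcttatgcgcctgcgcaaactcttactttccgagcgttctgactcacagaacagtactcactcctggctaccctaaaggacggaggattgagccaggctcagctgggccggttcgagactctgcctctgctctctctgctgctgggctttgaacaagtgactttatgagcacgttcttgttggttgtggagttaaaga
Cfhr2 (chr1:139858700-139858949, minus strand): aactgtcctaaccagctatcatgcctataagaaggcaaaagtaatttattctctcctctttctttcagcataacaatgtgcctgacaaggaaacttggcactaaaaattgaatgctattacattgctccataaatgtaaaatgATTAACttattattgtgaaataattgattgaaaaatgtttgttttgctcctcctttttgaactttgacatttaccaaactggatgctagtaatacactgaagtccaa

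Only Cfhr2 held a match, the HNF1 element at positions -107 to -102 from the start, and Mbl2 and both starts of C8g held none of these letters. RefSeq windows were found for 25 of the 33 measured members, with 27 starts. The HNF1 element was present in 9 of these 27 windows (33.3%), against 6.43% of 32851 promoter windows of the same length. Beside Cfhr2 these were C4bp, F13b, Hc, C8a, C8b, C1ra, Vtn and Cfp, of which none was called. The C/EBP letters stood in 14.8% of member windows and 9.56% of all, the STAT letters in 11.1% and 7.02%, and the HNF4 letters in 3.7% and 3.84%. A match describes these windows and shows no binding.

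Among the lectin pathway genes, Mbl2 fell and its paralogue Mbl1 was not called. Mbl2 encodes mannose-binding lectin C, a plasma lectin that recognises microbial sugars. Its levels were 9.52, 9.75, 9.93 and 9.87 in wild-type arrays, in the order of replicates 1 to 4 kept throughout, and 9.07, 8.69, 8.61 and 8.13 in the arrays labelled knockout. The highest array labelled knockout stayed below the lowest wild-type array. The mean went from 9.77 ± 0.18 to 8.63 ± 0.39 (SD, n = 4 each), a difference of -1.14 (SE 0.17; limma adjusted p = 0.0120) or 2.21-fold. By set, it amounted to -1.53 with Xist signal (adjusted p = 0.0157) and -0.76 with Y-linked signal (adjusted p = 0.112), and the interaction did not pass (adjusted p = 0.823). Leaving out any 1 array kept the call, with adjusted p between 0.00448 and 0.0427.

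Mbl1, which encodes mannose-binding lectin A, read between 10.93 and 11.03 in the 4 wild-type arrays and 11.45, 10.98, 10.56 and 11.30 in those labelled knockout. The wild-type arrays were tight (SD 0.04), and the other group spread to both sides of them (SD 0.40). Its difference was 0.09 (95% interval -0.27 to 0.46; adjusted p = 0.778). Masp1, a protease that travels with these lectins, read 11.62, 11.43, 11.49 and 11.53 in wild-type arrays and 11.45, 11.54, 11.59 and 11.42 in the others. The groups overlapped fully, with a difference of -0.02 (95% interval -0.18 to 0.15; adjusted p = 0.923). The row shared by Masp2 and Tardbp differed by 0.02 and cannot be assigned to either gene. With 1 of 3 measured lectin genes called, the median difference of -0.02 says little about Mbl2.

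In the alternative pathway both measured genes lay on the higher side and neither was called. Cfp encodes properdin, which stabilises the C3 convertase of this pathway. It read 9.64, 9.63, 10.04 and 9.94 in wild-type arrays and 10.08, 10.31, 10.44 and 10.62 in those labelled knockout. The groups did not overlap, although wild-type replicate 3 and knockout-labelled replicate 1 differed by little. The difference was 0.55 (SE 0.13; 1.46-fold; limma adjusted p = 0.0563). Both sets of arrays gave nearly the same value, 0.54 with Xist signal and 0.56 with Y-linked signal. With the set as a block the SE was 0.08 and Cfp passed (adjusted p = 0.00797). Cfp passed in 5 of 19 alternatives: beside that block, with low genes left out (0.0459), with trend and robust settings (0.0491), with the replicate number as a block (0.0286) and without knockout-labelled replicate 1 (0.0273). It did not pass without any other array (adjusted p up to 0.156) or with a common median (0.0788).

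Marker lists of the myeloid cells that express Cfp moved with it. Of 15 neutrophil markers 11 rose and 1 fell, with a mean log2 level per array of 6.73 to 7.13 in wild-type and 7.52 to 8.07 in the arrays labelled knockout. Of 14 Kupffer cell and macrophage markers 7 rose, with ranges of 9.33 to 9.64 and 9.85 to 10.24, and of 8 monocyte markers 5 rose. The part of these cells in the value of Cfp was not tested. In whole liver, more or fewer cells of a type and more or less RNA per cell cannot be told apart. Cfb, factor B, the protease of the alternative C3 convertase, read 12.17, 12.09, 12.11 and 12.12 in wild-type arrays and 12.33, 12.25, 12.16 and 12.30 in the others. Its difference of 0.14 (95% interval -0.01 to 0.28; adjusted p = 0.265) left knockout-labelled replicate 3 inside the wild-type range.

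Of the 6 terminal components, C8g fell and 5 did not pass. C8g encodes the gamma chain of C8, a lipocalin bound to the pore-forming alpha and beta chains. It read 11.39, 11.43, 11.45 and 11.15 in wild-type arrays and 11.15, 10.78, 10.47 and 10.58 in those labelled knockout. The groups met at 11.15, at wild-type replicate 4 and knockout-labelled replicate 1, and were otherwise apart. The mean went from 11.35 ± 0.14 to 10.75 ± 0.30 (SD, n = 4 each), a difference of -0.61 (SE 0.14; 1.53-fold; limma adjusted p = 0.0470). The call lay close to the threshold: among 8 fits that each left out 1 array it passed solely without knockout-labelled replicate 1 (the other adjusted p values reached 0.132), while the difference stayed between -0.74 and -0.52. It was also lost with a common median (0.0534) and with the replicate number as a block (0.0532). Within the sets it was -0.77 (adjusted p = 0.0656) and -0.45 (adjusted p = 0.299), and with the set as a block it passed (adjusted p = 0.0209).

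C9, the component that polymerises into the pore, read 12.19, 12.23, 12.06 and 11.93 in wild-type arrays and 12.08, 11.74, 11.29 and 11.49 in those labelled knockout. Only knockout-labelled replicate 1 reached the wild-type range. The difference of -0.46 (SE 0.15; adjusted p = 0.130) passed with the set of arrays as a block (adjusted p = 0.0418) and without knockout-labelled replicate 1 (-0.60; adjusted p = 0.0292). C8a, the alpha chain of C8, read 12.14, 12.18, 12.18 and 12.08 in wild-type arrays and 12.11, 12.05, 11.60 and 11.86 in the others, a difference of -0.24 (adjusted p = 0.228). C8b, its neighbour on chromosome 4 and the beta chain, differed by -0.09 (95% interval -0.27 to 0.09). The chains of C8 thus gave 3 different values, -0.61, -0.24 and -0.09, and differences between genes were not tested. Hc, which encodes C5, differed by -0.09 (95% interval -0.23 to 0.06).

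C6, the terminal component that binds C5b, separated the sets of arrays, and its genotype difference was not called. It read 11.45 and 11.42 in wild-type replicates 1 and 2 and 11.39 and 10.91 in the same replicates labelled knockout, which carried Y-linked signal. In the arrays with Xist signal it read 9.66 and 9.34 in wild-type and 9.97 and 10.37 in those labelled knockout. All arrays of the first set lay above all of the second, a distance of 1.45 between set means of 11.29 and 9.84, which is a description of sets defined from the data. C6 was the only member whose levels separated the sets, as 2.30% of all genes did. Its genotype difference was 0.66 with Xist signal and -0.28 with Y-linked signal (interaction adjusted p = 0.767), and the pooled 0.19 had a 95% interval of -0.92 to 1.30. The SD of 1.12 in wild-type arrays was the largest of any member in either group.

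**Figure D2:**
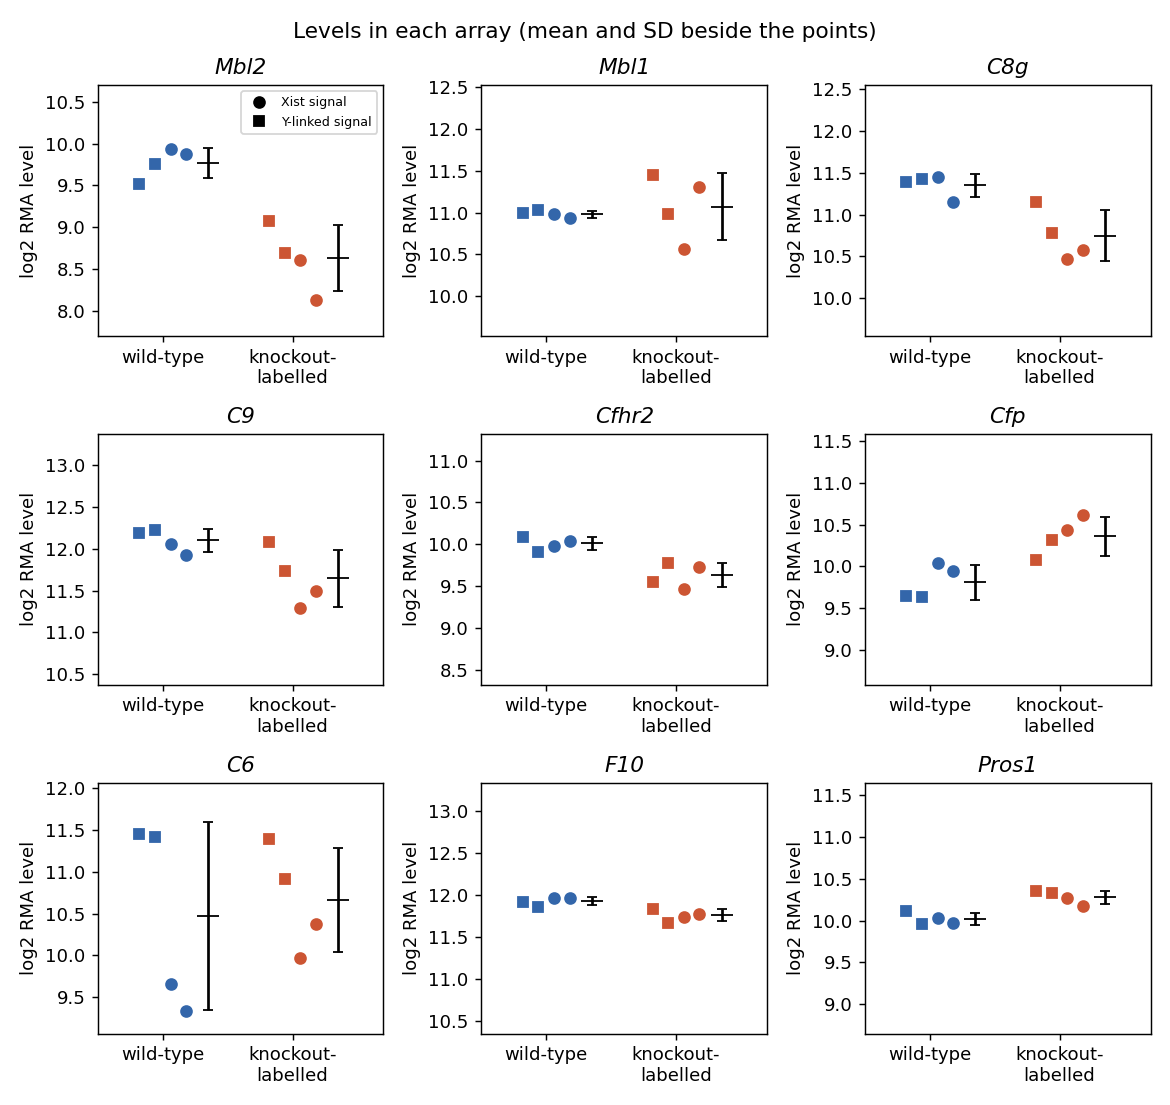
Log2 RMA level (y axis) of 9 genes in each wild-type array (blue) and each array labelled knockout (red), with circles for arrays with Xist signal, squares for arrays with Y-linked signal, and the mean and SD of n = 4 beside the points. Each panel spans 3 log2 units: Mbl2 shows the groups apart, C6 splits by the shape of the point, and F10 and Pros1 differ by small, even shifts.

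The genes that start the classical pathway all had small positive differences, and none was called. C1ra and C1s1, neighbours on chromosome 6 that encode the proteases of C1, differed by 0.20 (adjusted p = 0.214) and 0.08 (adjusted p = 0.769). C1s1 has a second row, which differed by -0.11, so the sign depends on the row. C2, the protease cut by C1s, differed by 0.19, and C4b, whose product is cleaved beside it, by 0.09 (adjusted p = 0.421). C4b read 12.62 to 12.76 in wild-type arrays and 12.79 to 12.83 in those labelled knockout, groups apart by a narrow gap. C2, Cfb and C4b lie in 1 cluster on chromosome 17 and had the same sign. Mouse C4b, C1ra and C1s1 each have a close copy in the genome, and these arrays may not tell the copies apart.

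Among complement regulators Cfhr2 fell and 3 others did not pass. Cfhr2 encodes a plasma protein from a family of similar complement genes. It read 10.09, 9.91, 9.98 and 10.04 in wild-type arrays and 9.55, 9.77, 9.47 and 9.73 in those labelled knockout. The groups did not overlap, and both were tight (SD 0.08 and 0.14). The difference was -0.38 (SE 0.08; 1.30-fold; limma adjusted p = 0.0452), and by set it was -0.41 with Xist signal and -0.34 with Y-linked signal. Among 8 fits that each left out 1 array it passed solely without knockout-labelled replicate 2 (the other adjusted p values reached 0.131). The call was also lost with quantile normalization (0.0609) and with the replicate number as a block (0.0894). Its difference stayed between -0.43 and -0.32 in all 19 alternatives. Similar transcripts of its gene family may reach the same probes.

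Cfhr2 is also 1 of 3 members within 20 Mb of Il10 on chromosome 1, where sequence of another strain can stay linked to a targeted gene. The labels do not give the origin of the mutation, and its part in these values was not tested. C4bp, which encodes the C4b-binding protein and lies 0.36 Mb from Il10, read 12.21, 12.14, 12.10 and 12.22 in wild-type arrays and 12.39, 12.31, 12.12 and 12.37 in those labelled knockout. That is a difference of 0.13 (95% interval -0.04 to 0.31; adjusted p = 0.360), with knockout-labelled replicate 3 in the wild-type range. F13b, the carrier subunit of the clot-stabilising factor XIII, lies 8.48 Mb from Il10 and Cfhr2 8.79 Mb. It read 10.76, 10.64, 10.99 and 10.75 in wild-type arrays and 10.56, 10.51, 10.66 and 10.31 in the others, a difference of -0.28 (adjusted p = 0.148). Of all 199 measured genes in that window, members included, 9 were called higher and 4 lower, 6.53% beside 3.15% of all genes, and 21.6% had groups apart beside 12.9% of all genes. The remaining regulators lay far from Il10. Cfi, the protease that inactivates C3b, differed by -0.13 (95% interval -0.28 to 0.02). Vtn, vitronectin, which blocks pore insertion, differed by 0.02 (95% interval -0.11 to 0.16).

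The receptors of the cleavage products C3a and C5a were not called. C5ar1 differed by 0.28 (95% interval -0.03 to 0.58; adjusted p = 0.284) and C3ar1 by -0.06 (95% interval -0.28 to 0.15). In the arrays labelled knockout C5ar1 read 6.77, 6.26, 6.82 and 6.88, with replicate 2 apart from the rest and at the level of wild-type arrays, which read 6.21 to 6.58. Both levels were near the array medians of 6.09 to 6.22, and whether the probes exceed background is not known. The myeloid marker values given beside Cfp apply here too, and their part was not tested.

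The 8 clotting factors had a median difference of -0.09, and their 95% intervals all lay within 1.5-fold, as did those of 87.3% of all genes. F10, factor X, which converts prothrombin, had the smallest p among them after F13b. It read 11.92, 11.86, 11.96 and 11.97 in wild-type arrays and 11.83, 11.67, 11.74 and 11.78 in those labelled knockout. The groups did not overlap, but the difference of -0.17 (SE 0.07; adjusted p = 0.174) did not pass. F7, its neighbour on chromosome 8 and the partner of tissue factor, differed by -0.12 (95% interval -0.33 to 0.08). F5, the cofactor of factor X, read 12.32, 12.22, 12.33 and 12.38 in wild-type arrays and 12.30, 12.16, 12.09 and 12.10 in the others, a difference of -0.15 (adjusted p = 0.272). In F5 the arrays with Xist signal gave -0.26 and those with Y-linked signal -0.04.

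The genes of prothrombin, factor IX and the contact pathway were not called. F2, prothrombin, differed by -0.05 (95% interval -0.19 to 0.09), F9 by 0.07 and F12 by 0.08 (95% interval -0.06 to 0.21). Kng1, the kininogen that feeds the contact pathway, differed by -0.07 (95% interval -0.23 to 0.09). F11 read 10.40 to 10.51 in wild-type arrays and 10.78, 10.12, 9.97 and 10.76 in those labelled knockout. The wild-type arrays were tight (SD 0.05), and replicates 1 and 4 of the other group lay above them and replicates 2 and 3 below (SD 0.42). The mean difference of F11 was -0.06 (adjusted p = 0.867). The row shared by Klkb1, prekallikrein, and Cyp4v3 differed by -0.54 (adjusted p over all rows = 0.165) and cannot be assigned to Klkb1.

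Anticoagulant and fibrinolytic members did not pass. Pros1, protein S, read 10.12, 9.96, 10.03 and 9.97 in wild-type arrays and 10.35, 10.33, 10.27 and 10.17 in those labelled knockout. The groups were apart and the difference was 0.26 (SE 0.07; 1.20-fold; adjusted p = 0.0780). It passed with quantile normalization (0.31; adjusted p = 0.0343) and cyclic loess (0.30; adjusted p = 0.0339). It did not pass in the other alternatives, among them a common median (0.21; adjusted p = 0.177), the replicate number as a block (0.128) and each array left out (0.113 to 0.166). Proc, the protein C that Pros1 assists, differed by -0.07 (95% interval -0.25 to 0.11), so the pair had opposite signs, a contrast that was not tested. Plg, plasminogen, differed by 0.01 (95% interval -0.13 to 0.15). The 6 members that depend on vitamin K (F2, F7, F9, F10, Proc and Pros1) had a median of -0.06.

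Groups without overlap occurred in 7 members, 21.2%, beside 12.9% of all genes. C4b, Cfp and Pros1 lay above wild-type (3 members, and 7.20% of all genes), and Mbl2, C8g, Cfhr2 and F10 below it (4 members, and 5.74% of all genes). For C8g the groups were apart by less than the printed digits. The spread among arrays was larger in the arrays labelled knockout for 23 members (69.7%, beside 56.3% of all genes). With each gene set against its wild-type mean, the terminal components had medians of -0.02, -0.08, -0.52 and -0.24 in the arrays labelled knockout, and 0.07, 0.08, -0.02 and -0.18 in wild-type arrays, so these ranges overlapped. For the clotting factors the medians were -0.02, -0.08, -0.13 and -0.09, beside -0.01, -0.08, 0.02 and 0.04. For the alternative genes they were 0.24, 0.31, 0.33 and 0.49, beside -0.06, -0.11, 0.11 and 0.07. Hepatocyte markers, the cells that make most of these proteins, had medians of -0.03, 0.04, -0.01 and -0.07 in the arrays labelled knockout. Of 17 measured hepatocyte markers, Tat rose by 0.51 and 16 did not pass. The largest difference on this list was -1.30 in Fabp1 (limma adjusted p = 0.149), with groups apart and 9.19 in knockout-labelled replicate 3. Alb, Apoa2, Ttr and Ahsg were also lower with groups apart. Tat, Hnf4a and, by less than the printed digits, Hpd were higher with groups apart. The mean level of that list was 12.67 to 12.72 in wild-type and 12.58 to 12.70 in the other arrays.

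**Figure D3:**
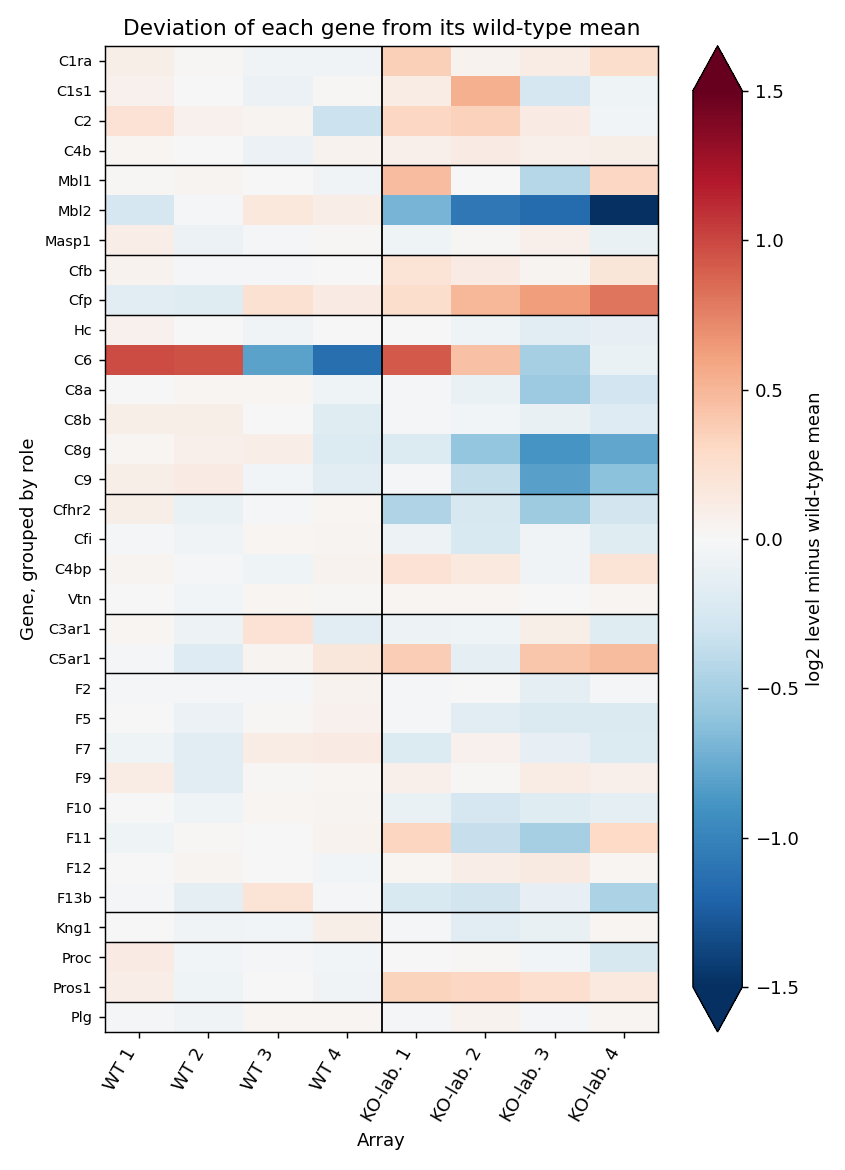
Log2 level minus the wild-type mean (colour) of each gene (rows, grouped by role) in each array (columns, wild-type left of the line, knockout-labelled right). Mbl2 is blue in all 4 arrays labelled knockout, C6 is split within both groups, and most coagulation genes are pale.

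**Figure D4:**
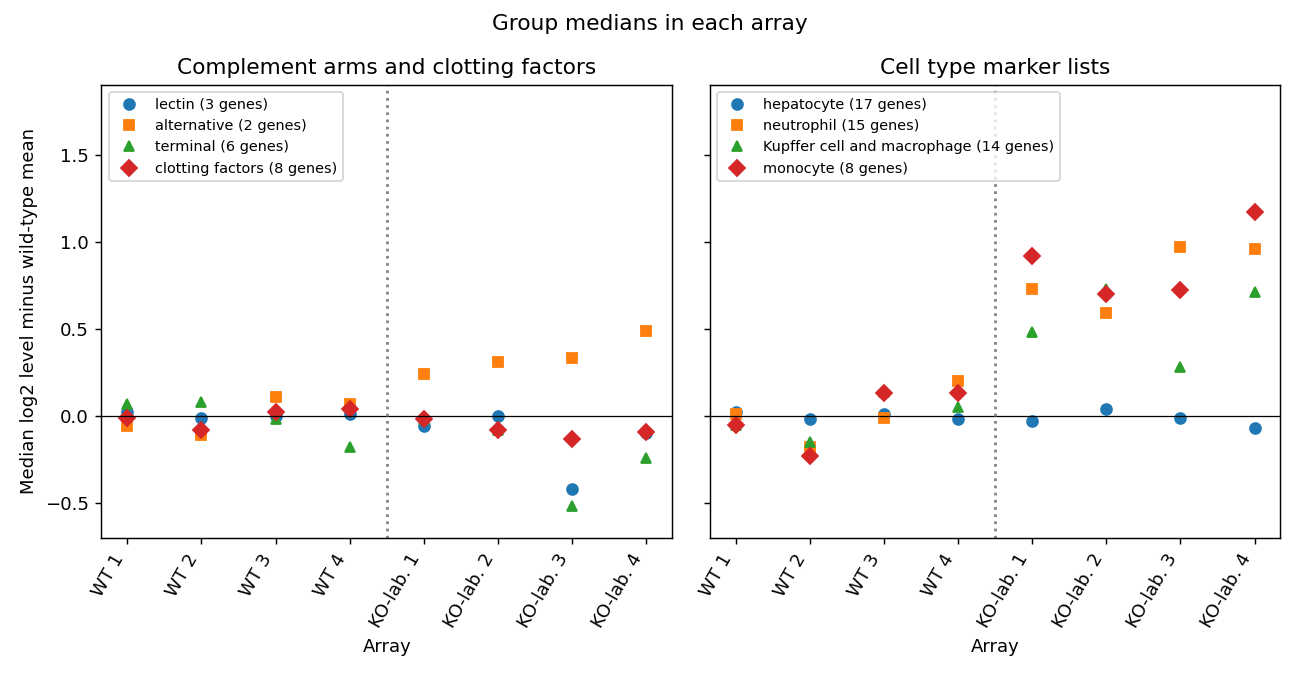
Median over genes of the log2 level minus the wild-type mean (y axis) in each array (x axis), for complement arms and clotting factors (left) and cell type marker lists (right). The terminal components reach -0.52 in knockout-labelled replicate 3, and neutrophil, macrophage and monocyte markers lie above 0 in the 4 arrays labelled knockout while hepatocyte markers stay near 0.

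Within the 2 sets of arrays, 25 of 33 members had the same sign of difference and 8 did not. Of those 25, 14 had values more than 1.5 times apart, such as C8a (-0.40 with Xist signal and -0.08 with Y-linked signal). No interaction between genotype and set passed for any member (lowest adjusted p = 0.767), and 0.0271% of all genes passed. With 2 arrays per group in each set, such differences are measured loosely.

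Other genes of these pathways were taken from lists of the 2 cascades and of fibrinolysis. Of 24 other complement genes measured, 5 rose, 20.8% beside 1.56% of all genes called higher, and 19 did not pass. They were the C1q chains C1qb (0.64; limma adjusted p = 0.00587) and C1qc (0.51; adjusted p = 0.0253), which start the classical pathway, the C3b receptor Vsig4 (0.61; adjusted p = 0.0350), and the chains Itgam (0.71; adjusted p = 0.0334) and Itgb2 (0.57; adjusted p = 0.00795) of complement receptor 3. The remaining C1q chain, C1qa, differed by 0.30 and did not pass (adjusted p = 0.173). C1qb read at most 11.07 in wild-type arrays and 11.55, 11.75, 11.66 and 11.75 in the others, with no overlap. The called genes are expressed by macrophages or other myeloid cells, and C1qb, C1qc, Vsig4 and Itgam are themselves on the marker lists above. Of 27 other coagulation genes none was called by limma (8 had an unadjusted p below 0.05, beside 21.2% of all genes). Those with the smallest p were Tfpi2 (-0.63; adjusted p = 0.0555) and Tfpi (-0.32; adjusted p = 0.0891), inhibitors of the tissue factor pathway, F13a1 (0.57; adjusted p = 0.0849), the catalytic subunit of factor XIII, and tissue factor itself, F3 (-0.56; adjusted p = 0.0891). With the set of arrays as a block, Tfpi2 passed as lower (limma adjusted p = 0.0483). By set, F3 differed by -0.97 with Xist signal (limma adjusted p = 0.0294) and -0.15 with Y-linked signal (adjusted p = 0.767). The interaction for F3 did not pass (adjusted p = 0.557). Of 7 other fibrinolysis genes, Hgfac, a protease related to factor XII that activates hepatocyte growth factor, fell by 0.41 (adjusted p = 0.0230). Plaur (0.19), Serpinf2 (-0.08) and Habp2 (-0.09) did not pass.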

How the data were processed

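Mouse liver RNA was read on 8 Affymetrix Mouse Gene 2.0 ST arrays, 4 per genotype. The values the authors deposited are log2 levels; the submitters' processing notes name RMA and R 3.0.1. The array background settings and the build were not given in the sources used here. Of 41345 rows, 23521 name 1 gene and gave 22180 genes. Arrays have no read depth, and their number limits the precision. No filter was applied. Groups and replicate numbers come from the sample titles.

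Genes were compared with limma 3.58.1 (lmFit, eBayes without trend) in R 4.3.3, with Benjamini-Hochberg adjustment over all genes. The fit was also run on simulated data with independent normal noise. Those data held no sets of arrays and no unequal spread between groups, so they do not check the fit for these. Intervals are 95% from the same fit. Arrays were put into sets by Xist against 3 Y-linked genes. No 2 arrays were identical (smallest root mean square distance 0.261). Promoters and distances to Il10 came from RefSeq (GRCm38.p6). Figures used matplotlib 3.10.9. Alternatives covered scaling, filtering, variance settings, blocks and left-out arrays.

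The members and lists were chosen with earlier results of these data known. Values in every array are given for called members, the 3 with the smallest p in the lectin, alternative and terminal arms and the clotting factors, and those within 20 Mb of Il10. Other pathway genes were named when called or among the 4 with the smallest p of a list, and C1qa as the remaining chain of C1q. C6, F11, Pros1, C4b and C5ar1 were singled out after their values were seen.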

Additional observations from a re-analysis of the deposited data

Results flagged for a closer look

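Of 94 groups of 4 arrays looked at (47 genes in each genotype), 3 held an array far from the others, where chance flags about 1 in 20. C5ar1 was lower in knockout-labelled replicate 2 (6.26) than in the other arrays of its group (6.77 to 6.88). Proc was higher in wild-type replicate 1 (11.77) than in the other wild-type arrays (11.61 to 11.62). Vsig4 was lower in knockout-labelled replicate 1 (11.25) than in the others (11.61 to 11.62).

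Differences of opposite sign in the sets of arrays were found for 8 of 33 members. In C6 and Plg, both arrays labelled knockout lay beyond both wild-type arrays in each set, on opposite sides, and neither difference between sets passed. For Plg the nearest arrays in each set were apart by less than the printed digits. C6 had 0.66 with Xist signal and -0.28 with Y-linked signal, a difference of -0.95 (limma interaction adjusted p = 0.767). Plg had -0.04 and 0.05, both smaller than its SE of 0.06, a difference of 0.09 (interaction adjusted p = 0.954).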

How the results depend on the processing

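Of 627 values of 33 members under 19 alternatives, 598 kept the sign of the reported difference and 29 did not, and no called value changed sign. Mbl2 kept its call in 18 of 19, the exception being the arrays with Y-linked signal, and C8g and Cfhr2 kept theirs in 8 each. The count of members called lower was 3; it was 1 with the replicate block, 1 and 0 in the arrays with Xist or Y-linked signal alone, and between 1 and 3 with single arrays left out, where it was 1 without any wild-type array or without knockout-labelled replicate 3 or 4. Members called higher numbered 1 with the lowest 40% of genes left out, quantile normalization, cyclic loess, trend and robust settings, the replicate block or the block for sets, 2 at an adjusted p below 0.1, and between 0 and 1 with single arrays left out. That gene was Pros1 for both normalizations and Cfp otherwise. The median difference of members was -0.10 after setting a common median and 0.00 for Y-linked signal alone. For clotting factors it was -0.14 with a common median, -0.17 with Xist and 0.00 with Y-linked signal. With single arrays left out, the medians ranged from -0.06 to -0.01 (members), -0.05 to 0.02 (lectin), 0.29 to 0.38 (alternative), -0.22 to -0.11 (terminal) and -0.14 to -0.06 (clotting factors). The causes were not tested. Over all genes, 347 were called higher and 352 lower. The counts were 209 and 330 with a common median, 225 and 272 with the replicate block, 473 and 565 with the block for sets, and 133 and 184 or 102 and 69 in the Xist or Y-linked sets. Without wild-type replicates 1, 2, 3 or 4 they were 111 and 96, 114 and 123, 141 and 97, and 201 and 209; without knockout-labelled replicate 4 they were 109 and 98, and without knockout-labelled replicate 1 they were 429 and 611. Higher genes made up 49.6% of calls, and 38.8% with a common median. Same-numbered arrays had correlations of deviations of 0.27, 0.04, -0.10 and 0.29. These values cannot decide whether the numbers pair the samples, because the sets by Xist and Y-linked signal follow the numbers in both groups.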

Other observations

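The following were chosen after their values were seen. Beside Mbl1 and Mbl2, 5 genes of the collectin and ficolin families were measured on the lists used, 4 with a negative and 1 with a positive difference, and none passed. Colec12, a scavenger receptor with a lectin domain, differed by -0.55 (limma adjusted p = 0.0619), from 10.16, 10.14, 10.21 and 9.92 in wild-type arrays to 9.85, 9.66, 9.56 and 9.14 in those labelled knockout, groups that did not overlap. It passed with the set of arrays as a block (adjusted p = 0.0350). Colec10, which pairs with Colec11 in plasma, differed by -0.58 (adjusted p = 0.0789), Colec11 by -0.54 (adjusted p = 0.118) and the ficolin Fcna by -0.28 (adjusted p = 0.0934). The ficolin Fcnb differed by 0.09, as did the collectin Mbl1. Colec11 is also on the stellate cell list, of which 2 of 10 measured genes were lower and none higher.

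The fibrinogen chains Fga, Fgb and Fgg, acute-phase proteins cleaved by thrombin, differed by 0.09, 0.03 and 0.03, each with a 95% interval inside -0.12 to 0.25. Susd4, a complement inhibitor, split by set of arrays as C6 did: it read 8.98, 9.11, 8.56 and 7.92 in arrays of the Y-linked set and 7.27, 7.11, 6.84 and 6.80 in those with Xist signal. Its set means were 8.64 and 7.00.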
